A study of Mus musculus with 24 samples.

Results

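The genes described here are 8 markers by which osteocytes are recognised: Pdpn, Cd44, Gja1, Piezo1, Sost, Mepe, Mef2c and Hyou1. They were chosen by name, and all 8 were found among the 49172 genes to which the deposited transcripts were summed, of which 34885 had a count in some library. Of the 8, Pdpn, Cd44, Gja1, Piezo1, Mef2c and Hyou1 passed the filter on low counts. Sost and Mepe did not, and were near absent from every group.

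The cells were Ocy454, a line of osteocytic cells derived from mouse bone and conditionally immortalised, so one line stands for the cell type. They received vehicle, the signalling lipid lysophosphatidic acid (LPA), the vitamin D hormone 1,25-dihydroxyvitamin D (1,25D), or LPA and 1,25D together, and RNA was taken at 2 h or at 8 h. The study's title names the synthesis of the phosphate-regulating hormone FGF23 as its subject. All 8 combinations of treatment and time had 3 libraries, which makes 24, and n = 3 for every group mean. The sources used here give no doses. The labels do not say whether the libraries of one group were separate cultures, so p-values describe only how far these samples spread, and that spread may be technical.

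An osteocyte is a former osteoblast that has become embedded in the bone it made. It stays in touch with its neighbours through long dendrites in a network of fine canals, senses load, and signals to the cells that form and resorb bone. Podoplanin, the product of Pdpn, is an early mark of the transition and is needed for dendrite growth. Sclerostin and MEPE, from Sost and Mepe, are secreted late, by cells in mineralised matrix.

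Libraries held about 32964400 to 33842000 estimated counts each, and mitochondrially encoded genes took 9.01 to 16.92% of them, with the highest share in vehicle replicate 2 at 8 h. For the single treatments, labels and table names disagree: libraries labelled 1,25D carry the letter L and libraries labelled LPA the letter D. Cyp24a1, a direct target gene of the vitamin D receptor, went against the labels, with summed counts at 8 h of 1 in vehicle, 1 in libraries labelled 1,25D, 102 in libraries labelled LPA and 87 with both agents. Vdr, the gene of that receptor, stood at 125, 72.3, 254 and 223 CPM, counts scaled to library size, in the same order. The 8 groups are the same sets of libraries under either naming. Single treatments are therefore called "libraries labelled 1,25D" or "libraries labelled LPA", and each direction given for them carries this reservation. By the letters in the table names, libraries labelled 1,25D would be those given LPA, and libraries labelled LPA those given 1,25D. Cyp24a1 went with the letters at 2 h as well, with summed counts of 1, 1, 10 and 6 in the order above.

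Levels of different genes are compared in TPM, a share of transcripts that is corrected for length. Averaged over the 24 libraries, Cd44 stood at 82.0 TPM, Gja1 at 74.9, Pdpn at 56.1, Hyou1 at 46.3, Piezo1 at 27.0 and Mef2c at 17.3. These values sum all transcripts of a gene. For Piezo1, 26.1% of TPM lay on a transcript annotated as a retained intron and 25.95% on one annotated for nonsense-mediated decay. Its leading protein-coding transcript averaged 10.3 TPM, so its place above Mef2c holds for the sums only. Sost averaged 0.0216 TPM and Mepe 0.000907 TPM. The 6 detected markers were thus expressed at levels far above the others in every library, and the lowest single value among them was 8.57 TPM, for Piezo1 in vehicle replicate 2 at 8 h. Between the groups with the highest and lowest mean TPM, the ratio was 3.52 for Cd44, 2.61 for Gja1, 1.84 for Piezo1, 1.70 for Pdpn, 1.38 for Mef2c and 1.22 for Hyou1.

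**Figure D1:**
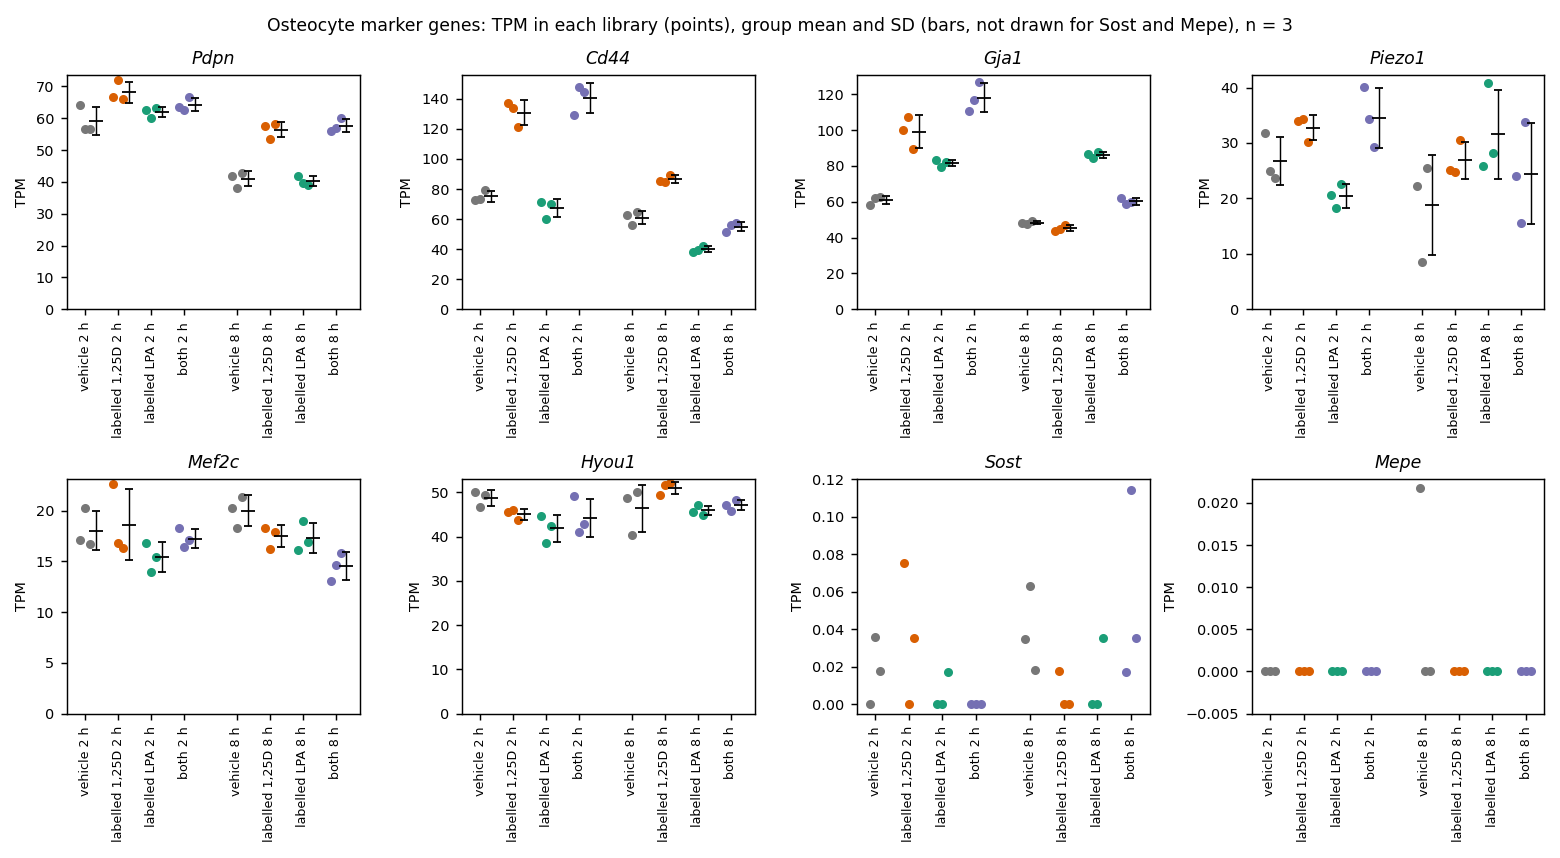
TPM of the 8 marker genes in each of the 24 libraries, one panel per gene. The horizontal axis gives the 8 groups, the vertical axis TPM on a linear scale, coloured points are libraries, and black bars are the group mean and SD (n = 3), which are not drawn for Sost and Mepe. Cd44 and Gja1 were highest with both agents at 2 h, Piezo1 spread widely within groups, and Sost and Mepe stayed below 0.12 TPM.

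Other genes that osteocytes are known for showed a similar division. Of 20 such genes, 14 passed the filter. The other 6, namely Fgf23, Dkk1, Ptprz1, Sostdc1, Npy and Reln, had means between 0.00501 and 0.0146 TPM. Dmp1, a matrix protein of young osteocytes, averaged 1.11 TPM and Phex, a peptidase of phosphate homeostasis, 0.174 TPM. Among 8 osteoblast markers 5 averaged over 1 TPM. The collagen genes Col1a1 and Col1a2 averaged 709 and 403 TPM, the transcription factor gene Runx2 25.5 TPM, Bglap 4.68 TPM and Bglap2 7.405 TPM. Alpl (0.828 TPM), Sp7 (0.360 TPM) and Ibsp (0.0178 TPM) were low. Podoplanin also marks lymphatic endothelium and CD44 blood cells. Of 6 endothelial genes 0 averaged over 1 TPM and 4, Prox1 among them, were under 0.1 TPM, while Pecam1 averaged 0.158 TPM and Cdh5 0.628 TPM. Their summed level ran from 0.522 to 0.842 TPM in vehicle and libraries labelled LPA at 2 h, to 1.60 TPM in libraries labelled 1,25D and to 1.15 TPM with both agents, and at 8 h from 0.576 to 1.15 TPM over all groups. Of 5 macrophage and blood cell genes 3 were under 0.1 TPM, Ptprc (0.0655 TPM), Adgre1 and Itgam, and only Cd68, at 14.8 TPM, averaged over 1 TPM. Their sum lay between 13.6 and 19.3 TPM at 2 h and between 11.2 and 14.9 TPM at 8 h. Any part of such cells in the levels of Pdpn and Cd44 was not tested.

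Changes were tested with edgeR's quasi-likelihood test on counts across 16424 genes, with p-values adjusted over all of them by the Benjamini-Hochberg method and called below 0.05. Fold changes are differences on the log2 scale of counts, given with their standard error (SE). At 2 h, 3 of the 6 tested markers were called in libraries labelled 1,25D against vehicle, all higher, where 13.9% of all tested genes were called and 7.06% were called higher. Libraries labelled LPA had 1 marker called, higher, against 0.785% of genes (0.597% higher), and both agents together had 2, each higher, against 19.9% (9.88% higher). At 8 h the corresponding counts were 3 markers (2 higher and 1 lower) in libraries labelled 1,25D, 2 (1 in each direction) in libraries labelled LPA, and 3 (2 higher and 1 lower) with both agents. The backgrounds at 8 h were 16.2% of genes (7.89% higher and 8.32% lower), 12% (6.62% and 5.38%) and 16.8% (9.54% and 7.25%) in that order. These shares of all genes are also the background for the lists of other genes counted against vehicle below. The 3 treatments of a time share their vehicle libraries, so their values for a marker are set side by side below and not counted as separate support.

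**Figure D2:**
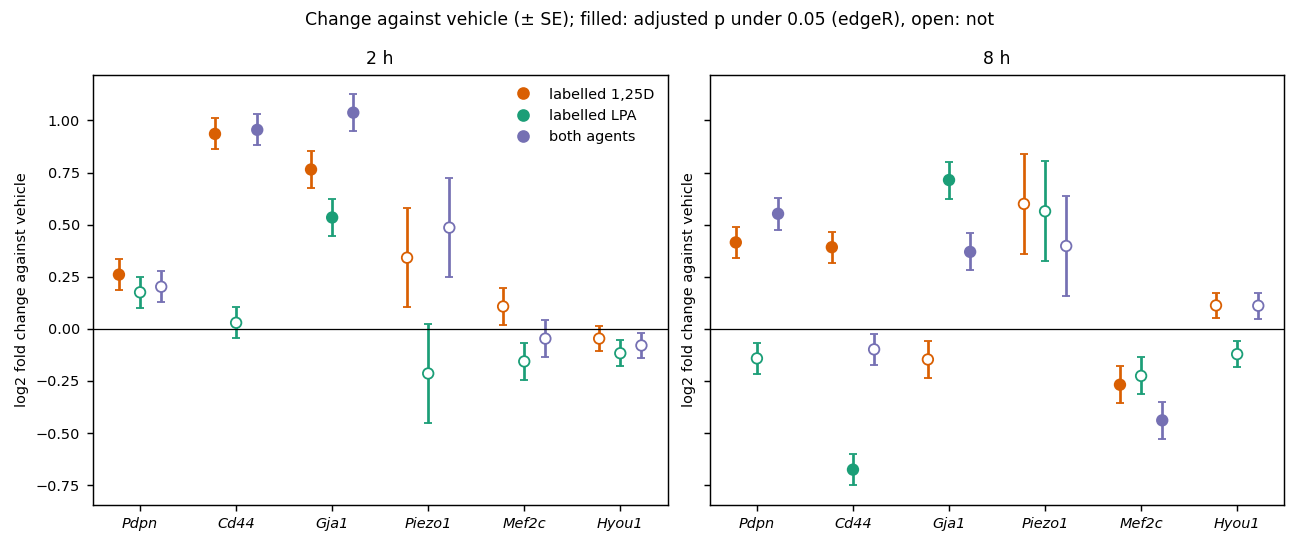
Change of each tested marker against vehicle at 2 h and at 8 h. The vertical axis is the log2 fold change from counts, bars are ± SE, colours are the treatments as labelled, and filled points have an adjusted p under 0.05. Cd44 lay near 0.94 at 2 h in libraries labelled 1,25D and with both agents, and the 3 treatments diverged at 8 h.

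The promoters of the 3 markers with the clearest changes are shown for what they hold near the start site. They come from RefSeq on GRCm38.p6, cover 250 bases before to 50 bases after the start of transcription, and are written 5′ to 3′ on the gene's own strand, with AP-1 and GC-box matches in capitals. Gja1 lies at chr10:56377050-56377349 on the plus strand, Cd44 at chr2:102901616-102901915 on the minus strand and Pdpn at chr4:143299515-143299814 on the minus strand.
Gja1: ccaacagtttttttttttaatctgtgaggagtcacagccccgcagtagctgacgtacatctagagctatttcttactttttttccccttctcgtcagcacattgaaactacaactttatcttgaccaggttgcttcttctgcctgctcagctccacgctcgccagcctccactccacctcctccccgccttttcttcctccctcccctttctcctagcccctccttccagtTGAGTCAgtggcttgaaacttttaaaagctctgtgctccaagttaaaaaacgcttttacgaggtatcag
Cd44: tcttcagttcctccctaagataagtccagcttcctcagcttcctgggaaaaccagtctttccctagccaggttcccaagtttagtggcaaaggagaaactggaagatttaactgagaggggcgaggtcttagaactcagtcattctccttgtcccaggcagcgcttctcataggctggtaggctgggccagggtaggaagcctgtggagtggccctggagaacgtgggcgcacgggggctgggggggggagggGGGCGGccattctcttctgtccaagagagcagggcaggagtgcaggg
Pdpn: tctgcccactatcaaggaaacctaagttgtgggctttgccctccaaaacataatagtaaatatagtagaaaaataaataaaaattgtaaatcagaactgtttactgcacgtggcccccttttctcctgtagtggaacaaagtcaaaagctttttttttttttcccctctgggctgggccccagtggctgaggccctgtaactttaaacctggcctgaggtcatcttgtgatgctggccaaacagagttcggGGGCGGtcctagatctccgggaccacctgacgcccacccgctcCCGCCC

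Motifs were searched on both strands of the 9 promoters listed for 7 of the markers, and Hyou1 was matched to none. The Gja1 promoter held an AP-1 match (TGANTCA, here TGAGTCA) from base -19 to base -13, counted with the start site as base 1, a motif found in 7.81% of all 32851 promoters of this length. Of the 3 Mef2c promoters 1 held it as well (TGAATCA), at bases -137 to -131. Cd44 held a GC box (GGGCGG) at bases 4 to 9 and Pdpn held it at bases 2 to 7 and, on the other strand, at 45 to 50, against 35.7% of promoters. Piezo1 held it at bases -40 to -35 and another of the Mef2c promoters at -10 to -5. The TATA motif TATAAA, found in 13.6% of promoters, stood at bases -24 to -19 in Piezo1 and, on the other strand, at -173 to -168 in Mepe and at -107 to -102 and -22 to -17 in different promoters of Mef2c. No promoter of the markers held the cyclic AMP response element TGACGTCA (1.79% of promoters), the CArG box (1.63%), the DR3 vitamin D response element (0.0396%) or the endoplasmic reticulum stress response element (0.119%). A match is a description of letters and no match says only that these letters are not in this window.

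Podoplanin is a membrane glycoprotein that links to the actin skeleton through ezrin family proteins. At 2 h its gene stood at 64.2, 56.7 and 56.7 TPM in vehicle replicates 1 to 3, at 66.6, 72.0 and 66.1 in libraries labelled 1,25D, at 62.5, 60.2 and 63.3 in libraries labelled LPA, and at 63.4, 62.7 and 66.7 with both agents. At 8 h it stood at 42.0, 38.2 and 42.7 TPM in vehicle, at 57.5, 53.6 and 58.1 in libraries labelled 1,25D, at 41.9, 39.7 and 39.0 in libraries labelled LPA, and at 56.1, 56.9 and 60.2 with both agents. At 8 h, libraries labelled 1,25D and those with both agents thus lay above the 6 other libraries of that time, while at 2 h the treatments lay close together.

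Pdpn in vehicle fell by 0.42 ± 0.08 (SE) between 2 h and 8 h (adjusted p = 0.000636), one of 2 markers called in that comparison against 14.6% of genes. With only the compared groups in the fit this call was lost (-0.41, adjusted p = 0.0667, in a range of 7.27e-06 to 0.0667 over the alternatives). Against vehicle at 8 h it rose in libraries labelled 1,25D by 0.41 ± 0.08 (adjusted p = 0.000675) and with both agents by 0.55 ± 0.08 (adjusted p = 1.44e-05). The change in libraries labelled LPA, -0.14 ± 0.08, was not called (adjusted p = 0.22). Both agents exceeded libraries labelled LPA by 0.69 ± 0.08 (adjusted p = 1.61e-06), where 4 of 6 markers were called against 22.9% of genes. The difference from libraries labelled 1,25D, 0.14 ± 0.08, did not pass (adjusted p = 0.271).

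At 2 h Pdpn rose in libraries labelled 1,25D, by 0.26 ± 0.08 (adjusted p = 0.0234), and this call was lost without vehicle replicate 2, vehicle replicate 3, or replicate 2 or 3 of that group, with adjusted p between 0.0533 and 0.147. It was also lost without the filter on low counts (0.25, adjusted p = 0.153, in a range of 0.00988 to 0.153 over the alternatives). With both agents Pdpn changed by 0.20 at 2 h and was not called (adjusted p = 0.066, in a range of 0.047 to 0.339). That change was called only with the mitochondrial share as a covariate. Libraries labelled LPA gave 0.18 at 2 h (adjusted p = 0.311). Both agents differed from libraries labelled 1,25D by -0.06 at 2 h (adjusted p = 0.925). The effect of both agents was larger at 8 h than at 2 h by 0.35 ± 0.11 (adjusted p = 0.0412), but that call was kept in 5 of 10 alternative settings and in 2 of 12 fits that each left out a library (adjusted p 0.0121 to 0.224 over all alternatives). By mean TPM the order ran from libraries labelled 1,25D at 2 h (68.2) to libraries labelled LPA at 8 h (40.2). The only neighbours in that order whose libraries did not overlap were libraries labelled 1,25D at 8 h (56.4) and vehicle at 8 h (41.0).

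CD44 is the main cell-surface receptor for hyaluronan, a large polysaccharide of the extracellular matrix. At 2 h Cd44 stood at 72.6, 73.7 and 79.5 TPM in vehicle, at 137, 134 and 121 in libraries labelled 1,25D, at 71.4, 60.2 and 70.2 in libraries labelled LPA, and at 129, 148 and 145 with both agents. At 8 h it stood at 62.4, 55.9 and 64.6 TPM in vehicle, at 85.2, 84.8 and 89.5 in libraries labelled 1,25D, at 38.2, 39.7 and 41.9 in libraries labelled LPA, and at 51.6, 56.1 and 57.2 with both agents. At 2 h, libraries labelled 1,25D and those with both agents formed one high set that no other library reached, whereas at 8 h libraries labelled 1,25D lay above all others, libraries labelled LPA below all others, and vehicle and both agents overlapped.

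Against vehicle at 2 h Cd44 rose by 0.94 ± 0.07 in libraries labelled 1,25D (adjusted p = 6.74e-09), a 1.91-fold difference, and by 0.95 ± 0.07 with both agents (adjusted p = 4.31e-09). Libraries labelled LPA differed from vehicle by 0.03 ± 0.07 (adjusted p = 0.874). At 8 h Cd44 rose by 0.39 ± 0.07 in libraries labelled 1,25D (adjusted p = 0.000938) and fell by 0.68 ± 0.07 in libraries labelled LPA (adjusted p = 1.16e-06), to 0.626 of the vehicle level. With both agents the change from vehicle was -0.10 ± 0.07 and was not called (adjusted p = 0.447). Both agents nevertheless lay 0.58 ± 0.07 above libraries labelled LPA (adjusted p = 1.13e-05). They were lower than libraries labelled 1,25D, the log2 difference being -0.49 ± 0.07 (adjusted p = 9.28e-05), in a comparison that called 2 of 6 markers against 9.18% of genes.

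The effects on Cd44 differed between the times. For libraries labelled 1,25D the effect at 8 h minus that at 2 h was -0.54 ± 0.10 (adjusted p = 0.0031), with 2 markers called against 4.17% of genes, for libraries labelled LPA it was -0.70 ± 0.11 (adjusted p = 0.000257), with 1 marker called against 6.76%, and for both agents -1.05 ± 0.11 (adjusted p = 6.24e-07), with 3 called against 9.68%. The value for libraries labelled 1,25D was -0.29 on log2(TPM + 1), beside a median of 0.085 over all tested genes, and was not called there or with length-scaled counts (-0.41, adjusted p = 0.106, in a range of 5.95e-05 to 0.195 over the alternatives). Vehicle itself differed by -0.08 ± 0.07 between 8 h and 2 h on counts (adjusted p = 0.52), while on the scale of log2(TPM + 1) the difference was -0.30, where the median of all tested genes was -0.086. Limma called this vehicle difference on both TPM scales (adjusted p = 0.011 for each). With the mitochondrial share as a covariate edgeR called it as well (-0.22, adjusted p = 0.0431). Transcript Cd44-207 held 45.1% of the gene's TPM on average, Cd44-203 31.6% and Cd44-206 21.9%.

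Has2, which encodes a hyaluronan synthase and so makes the ligand of CD44, was the gene whose log2 CPM was most like that of Cd44 over the 24 libraries, among 11331 genes compared (Pearson r = 0.98, as a description, since these libraries share their treatments). It averaged 4.42 TPM in vehicle at 2 h, 27.3 in libraries labelled 1,25D, 4.40 in libraries labelled LPA and 24.01 with both agents. At 8 h the means were 2.16, 5.28, 1.10 and 2.82 TPM in the same order. Like Cd44, Has2 was highest in libraries labelled 1,25D and with both agents at 2 h and lowest in libraries labelled LPA at 8 h. The next most like gene was Wdr1, of actin filament turnover (r = 0.98). For Pdpn the most like genes were Eif4a1, a translation initiation helicase, and Phf5a, a splicing factor (r = 0.95 for each).

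Of 15 other genes around podoplanin and CD44, such as ezrin family linkers and hyaluronan enzymes, 14 were tested. With both agents 4 rose and none fell at 2 h, and 2 rose and none fell at 8 h, with median log2 fold changes of 0.21 and 0.18 beside 0.004 and 0.025 over all tested genes. Has2 rose by 2.52 ± 0.16 at 2 h (adjusted p = 1.15e-10) and Ezr, which encodes ezrin, by 0.26 ± 0.07 at both times (adjusted p = 0.0112 and 0.012). Rhoc, a small GTPase of the actin skeleton, rose by 0.78 ± 0.10 at 8 h (adjusted p = 1.07e-05). In libraries labelled 1,25D 3 rose and none fell at 2 h, and 4 rose and 2 fell at 8 h. In libraries labelled LPA none was called by edgeR at 2 h, and 2 rose and 3 fell at 8 h.

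Connexin 43, from Gja1, forms the gap junctions and hemichannels through which osteocytes exchange small molecules. At 2 h Gja1 stood at 58.2, 62.1 and 62.5 TPM in vehicle, at 100.05, 108 and 89.3 in libraries labelled 1,25D, at 83.2, 79.5 and 82.05 in libraries labelled LPA, and at 110.4, 117 and 127 with both agents. At 8 h it stood at 48.4, 47.4 and 49.2 TPM in vehicle, at 43.8, 44.7 and 47.2 in libraries labelled 1,25D, at 86.5, 84.2 and 87.5 in libraries labelled LPA, and at 62.1, 58.6 and 59.8 with both agents. At 2 h every treated library lay above all vehicle libraries, and the set with both agents was the highest. At 8 h, libraries labelled LPA were highest, those with both agents next, and libraries labelled 1,25D lowest.

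Against vehicle at 2 h Gja1 rose by 0.76 ± 0.09 in libraries labelled 1,25D (adjusted p = 2.32e-06), by 0.53 ± 0.09 in libraries labelled LPA (adjusted p = 0.00206) and by 1.04 ± 0.09 with both agents (adjusted p = 1.78e-08), a 2.05-fold difference. It was the only marker called in libraries labelled LPA at 2 h. Both agents exceeded libraries labelled LPA by 0.50 ± 0.09 (adjusted p = 0.000298), where 3 of 6 markers were called against 18.7% of genes. The excess over libraries labelled 1,25D, 0.27 ± 0.09, was not called (adjusted p = 0.254). In that comparison edgeR called 0 of 6 markers against 0.767% of genes, 1 at an unadjusted p under 0.05, and DESeq2 called 0. With the mitochondrial share of each library as a covariate the Gja1 difference was 0.31 and was called (adjusted p = 0.0199, in a range of 0.0199 to 0.703 over the alternatives).

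At 8 h Gja1 stayed higher than vehicle in libraries labelled LPA, by 0.71 ± 0.09 (adjusted p = 5.67e-06), and with both agents by 0.37 ± 0.09 (adjusted p = 0.00474). The second call was lost when only the compared groups entered the fit (adjusted p = 0.0859, in a range of 8.06e-05 to 0.0859 over the alternatives). Libraries labelled 1,25D gave -0.15 ± 0.09 (adjusted p = 0.28). Both agents were lower than libraries labelled LPA (log2 difference -0.34 ± 0.09, adjusted p = 0.00751), a call lost with only the compared groups in the fit (-0.36, adjusted p = 0.0511, in a range of 1.65e-05 to 0.0511). They exceeded libraries labelled 1,25D by 0.52 ± 0.09 (adjusted p = 0.000378). The effect at 8 h minus that at 2 h was -0.91 ± 0.13 in libraries labelled 1,25D (adjusted p = 8.77e-05) and -0.67 ± 0.12 with both agents (adjusted p = 0.00113). In libraries labelled LPA it was 0.18 ± 0.12 and was not called (adjusted p = 0.329). On log2(TPM + 1) that value was 0.40, beside a median of 0.133 over all tested genes, and limma called it (adjusted p = 0.0135). Gja1 in vehicle changed by -0.21 from 2 h to 8 h and was not called (adjusted p = 0.126). This change was called on log2(TPM + 1) (-0.33, adjusted p = 0.00127, beside a median of -0.086) and with the mitochondrial covariate (-0.37, adjusted p = 0.00392).

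Cd44 and Gja1 therefore took opposite sides of the single treatments at 8 h. Subtracting libraries labelled 1,25D from libraries labelled LPA gave -1.07 ± 0.08 for Cd44 (adjusted p = 6.37e-10) and 0.86 ± 0.09 for Gja1 (adjusted p = 2.38e-07), in a comparison with 4 of 6 markers called against 17.6% of genes. For each gene the libraries with both agents fell between the 2 single treatments without overlap. At 2 h the same comparison called 2 of 6 markers against 18.1% of genes, with Cd44 at -0.91 ± 0.07 (adjusted p = 1.21e-08), while Gja1, at -0.23 ± 0.09, was not called (adjusted p = 0.0756). The Gja1 difference was called, with the same sign, in 4 of 10 alternative settings. These were the compared groups only, both TPM scales and the mitochondrial covariate. It was called in 0 of 6 fits that left out a library (adjusted p 0.00597 to 0.304 over all alternatives). The genes most like Gja1 over the libraries were Gpd2, the mitochondrial glycerol phosphate dehydrogenase, and Secisbp2l (r = 0.96 and 0.95). Transcript Gja1-201 held 99.3% of the gene's TPM.

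**Figure D3:**
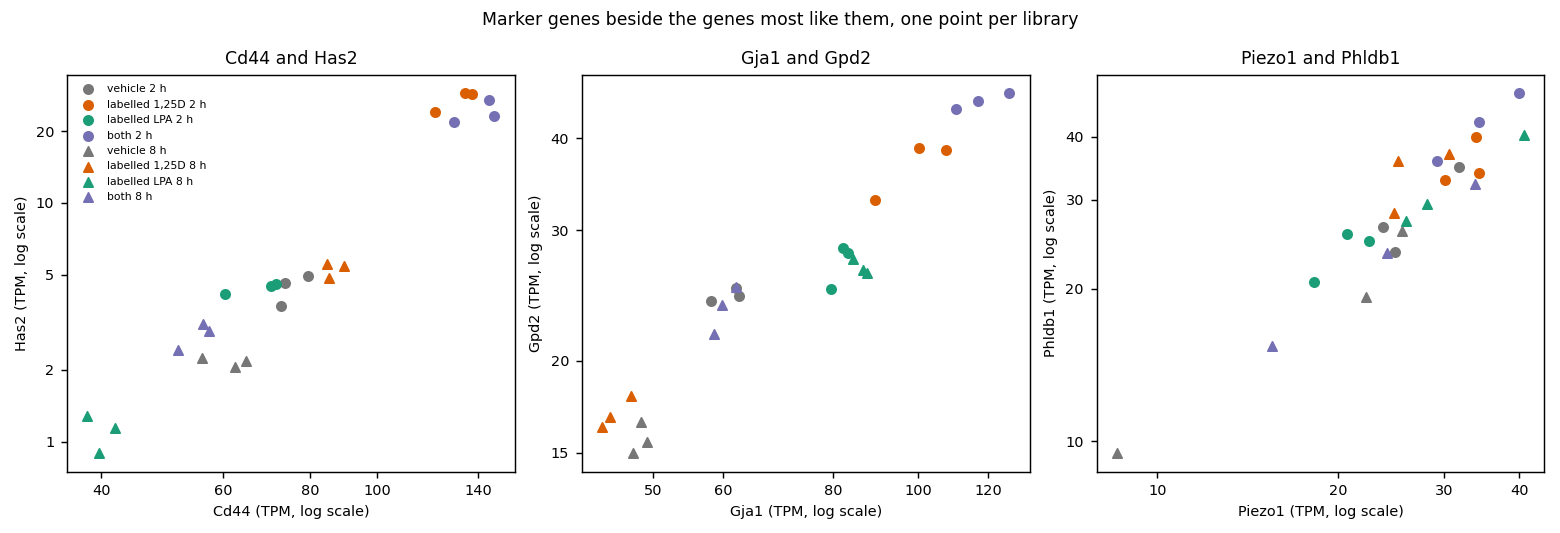
Cd44, Gja1 and Piezo1 each beside the gene most like it, one point per library. Both axes are TPM on log scales, colours are treatments and shapes are times (circles 2 h, triangles 8 h). Group means of Has2 ran from 1.10 TPM in libraries labelled LPA at 8 h to 27.3 TPM in libraries labelled 1,25D at 2 h, and the lowest Piezo1 library, at 8.57 TPM, was also lowest for Phldb1.

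Of 11 other connexin and pannexin genes 6 were tested. Against vehicle edgeR called none of them in any treatment at 2 h and none in libraries labelled 1,25D at 8 h, 1 rose in libraries labelled LPA at 8 h, and with both agents at 8 h only Gjc1, the gene of connexin 45, was called and fell by 0.27 ± 0.09 (adjusted p = 0.0452). Median log2 fold changes of the 6 with both agents were 0.012 at 2 h and 0.14 at 8 h, beside 0.004 and 0.025 over all tested genes. Of all tested genes 13.9%, 0.785% and 19.9% were called at 2 h in libraries labelled 1,25D, libraries labelled LPA and both agents. At 8 h the shares were 16.2%, 12% and 16.8% in that order. With only 6 genes, counts of 0 or 1 are not read as differing from these shares. The difference between Gja1 and its family was not tested.

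PIEZO1 is an ion channel that opens when the membrane is stretched and is a mechanosensor of bone cells. At 2 h Piezo1 stood at 31.7, 24.9 and 23.7 TPM in vehicle, at 33.95, 34.3 and 30.2 in libraries labelled 1,25D, at 20.7, 18.2 and 22.5 in libraries labelled LPA, and at 40.04, 34.3 and 29.2 with both agents. At 8 h it stood at 22.2, 8.57 and 25.6 TPM in vehicle, at 25.2, 24.8 and 30.6 in libraries labelled 1,25D, at 25.9, 40.7 and 28.1 in libraries labelled LPA, and at 24.1, 15.5 and 33.82 with both agents. Every group overlapped its neighbours in the order of levels, and the 3 vehicle libraries at 8 h alone ran from the lowest value of the series to 25.6 TPM.

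No change of Piezo1 against vehicle was called: the log2 fold changes were 0.34 ± 0.24, -0.21 ± 0.24 and 0.49 ± 0.24 at 2 h and 0.60 ± 0.24, 0.56 ± 0.24 and 0.40 ± 0.24 at 8 h for libraries labelled 1,25D, libraries labelled LPA and both agents (adjusted p between 0.0924 and 0.691). At 2 h both agents exceeded libraries labelled LPA by 0.70 ± 0.24 (adjusted p = 0.0452). That call was kept in only 1 of the 6 fits that left out a library (adjusted p 0.0449 to 0.18): it was lost without any replicate of libraries labelled LPA and without replicate 1 or 2 of both agents. It was also lost with the mitochondrial share as a covariate (0.45, adjusted p = 0.0852) and on both TPM scales, so it was called in 7 of 10 alternative settings (adjusted p 4.4e-10 to 0.18 over all alternatives). Calls against vehicle depended on the settings as well. Without the filter on low counts edgeR called Piezo1 in every treatment but libraries labelled LPA at 2 h (adjusted p 1.78e-07 to 0.0175). With only the compared groups in the fit both agents were called at 2 h (adjusted p = 0.0393). DESeq2 called libraries labelled 1,25D at 8 h (adjusted p = 0.0455). At 8 h calls also turned on vehicle replicate 3. Without it Piezo1 was called in libraries labelled 1,25D (0.91, adjusted p = 0.0136) and in libraries labelled LPA (0.88, adjusted p = 0.0194), and over all alternatives the adjusted p ran from 1.78e-07 to 0.421 and from 8.69e-07 to 0.591. Without vehicle replicate 2, the lowest library, the same values were 0.29 and 0.24 and were not called.

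Spread within groups set Piezo1 apart from the other markers. The SD of its log2 CPM within groups was 0.341, above that of 96.3% of the 9288 genes whose mean reached 10 CPM. For the other 5 it lay between 0.0664 and 0.110, above that of 42.4% of genes for Gja1 and of 4.22% for Hyou1. Deviations of Piezo1 from its group means ran against those of the mitochondrial share (Pearson r = -0.772, permutation adjusted p = 0.0132, Spearman rho = -0.605, adjusted p = 0.0198, 24 libraries, 6 genes tested, labels permuted 100000 times within groups, two-sided). Without vehicle replicates 2 and 3 at 8 h, the libraries whose shares deviated most, r was -0.463 over the 21 libraries then left. With the mitochondrial share as a covariate in the fit, Piezo1 was called against vehicle at 2 h in libraries labelled 1,25D (0.52) and with both agents (0.52), and at 8 h in libraries labelled LPA (0.57), while the difference of both agents from libraries labelled LPA at 2 h was no longer called.

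The relation had the other sign for 3 markers. For Cd44 r was 0.755 (permutation adjusted p = 0.00162, rho = 0.77, adjusted p = 0.00288) and 0.68 without those 2 libraries. For Gja1 it was 0.713 (permutation adjusted p = 0.00162, rho = 0.72, adjusted p = 0.00348) and 0.649 without them, and for Mef2c 0.56 (permutation adjusted p = 0.00614, rho = 0.582, adjusted p = 0.0194) and 0.485. Pdpn (r = 0.443, permutation adjusted p = 0.111, rho = 0.289, adjusted p = 0.248, 0.178 without the 2) and Hyou1 (r = 0.202, permutation adjusted p = 0.244, rho = 0.306, adjusted p = 0.247, 0.264 without the 2) did not pass. The deviations involved are small for Cd44 and Gja1, within 0.16 log2 units of the group mean. All Cd44 and Gja1 calls against vehicle held with the covariate in the fit.

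**Figure D4:**
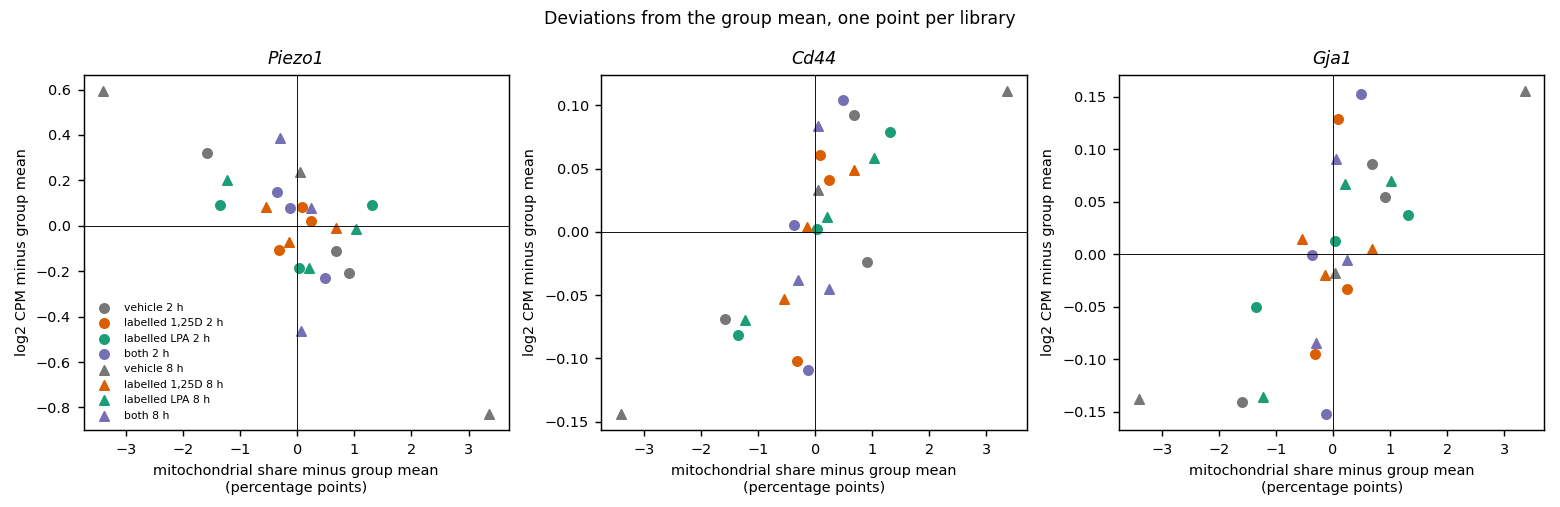
Deviation of log2 CPM from the group mean (vertical) against deviation of the mitochondrial share in percentage points (horizontal) for Piezo1, Cd44 and Gja1, one point per library, with colours for treatments and shapes for times. Piezo1 falls from left to right (r = -0.772) with vehicle replicates 2 and 3 at 8 h at the ends, and Cd44 and Gja1 rise on a vertical scale several times narrower (r = 0.755 and 0.713).

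The genes most like Piezo1 were Phldb1, which anchors microtubules at the cell cortex, and Eif4g1, a scaffold of translation initiation (r = 0.98 for each). In vehicle at 8 h they averaged 18.2 ± 8.32 and 109 ± 40.3 TPM (SD, n = 3). Estimated TPM of Piezo1 was divided among transcripts: Piezo1-209, which is protein coding, held 37.7%, Piezo1-203, annotated as a retained intron, 26.1%, Piezo1-204, annotated for nonsense-mediated decay, 25.95%, and Piezo1-201 6.57%. These transcripts overlap and share reads, so the division is the quantifier's estimate. Of 14 tested genes of mechanosensing, 4 rose and none fell with both agents at 2 h, among them Cav1, the main protein of caveolae (0.54 ± 0.09, adjusted p = 9.24e-05), and the integrin gene Itga5 (0.96 ± 0.21, adjusted p = 0.00181). At 8 h the integrin gene Itgb1 rose by 0.27 ± 0.08 (adjusted p = 0.0185) and Cav1 fell by 0.37 ± 0.09 (adjusted p = 0.00403). Medians of this list were 0.21 at 2 h and 0.12 at 8 h, beside 0.004 and 0.025 over all tested genes. Of all tested genes 9.88% were called higher at 2 h, and 9.54% higher and 7.25% lower at 8 h.

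**Figure D5:**
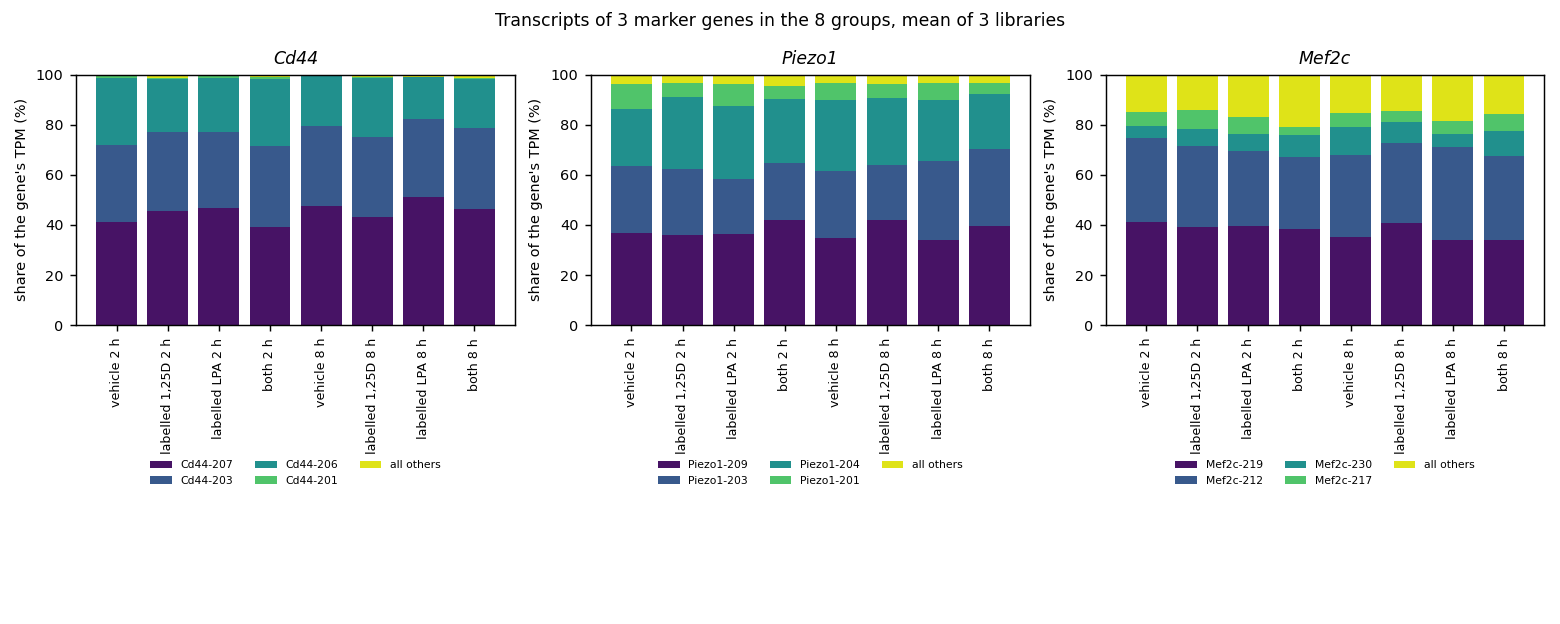
Share of each gene's TPM held by its 4 leading transcripts and by all others, for Cd44, Piezo1 and Mef2c in the 8 groups, as means of 3 libraries. The vertical axis is percent of the gene's TPM. Cd44-207 and Piezo1-209 led in every group, and Mef2c-212 passed Mef2c-219 in libraries labelled LPA at 8 h.

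Sclerostin, the product of Sost, is the osteocyte's secreted inhibitor of Wnt signalling, and MEPE is a secreted regulator of mineralisation. Sost had 30 counts in the whole series, at most 7 in a library, and 11 libraries had 0. Its counts at 2 h were 0, 2 and 1 in vehicle, 4, 0 and 2 in libraries labelled 1,25D, 0, 0 and 1 in libraries labelled LPA, and 0 in all 3 with both agents. At 8 h they were 2, 4 and 1 in vehicle, 1, 0 and 0 in libraries labelled 1,25D, 0, 0 and 2 in libraries labelled LPA, and 1, 7 and 2 with both agents. The highest group, both agents at 8 h, took 7 of its 10 counts from replicate 2.

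No change of Sost was detectable at this depth. The ratios of summed counts to vehicle, with 95% exact intervals that cover counting error only, were 2.13 (0.454 to 13.2) for libraries labelled 1,25D, 0.345 (0.00656 to 4.29) for libraries labelled LPA and 0 (0 to 2.59) for both agents at 2 h. At 8 h they were 0.144 (0.00320 to 1.12), 0.281 (0.0284 to 1.47) and 1.498 (0.515 to 4.63) for libraries labelled 1,25D, libraries labelled LPA and both agents. Mepe had 1 count in all, in vehicle replicate 1 at 8 h, and 0 in the other 23 libraries. For a count of 0 a limit of 3 counts was used, which is 0.0838 to 0.0967 CPM by library. The 95% exact interval of a summed count of 0 reached 3.69 counts.

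Of the other small integrin-binding ligand glycoproteins, to which MEPE belongs, 2 of 4 were tested, and Ibsp (0.0178 TPM) and Dspp were not. Spp1, the gene of osteopontin, rose with both agents by 2.16 ± 0.10 at 2 h (adjusted p = 6.76e-13) and by 3.83 ± 0.11 at 8 h (adjusted p = 1.21e-16), and averaged 942 TPM over the series. Dmp1 rose by 1.01 ± 0.17 at 8 h (adjusted p = 0.000157). Of 14 genes of sclerostin's receptors and of other Wnt antagonists 9 were tested, of which 1 rose with both agents at 2 h, and 2 rose and 2 fell at 8 h. The co-receptor gene Lrp5 rose by 0.73 ± 0.23 (adjusted p = 0.0323) and the antagonist gene Sfrp4 by 2.76 ± 0.47 (adjusted p = 0.000179), whereas the antagonist gene Sfrp2 fell by 1.21 ± 0.21 (adjusted p = 0.000185) and Dkk3 by 0.21 ± 0.07 (adjusted p = 0.0489). Sfrp4 was low, at 0.501 TPM over the series, beside 16.7 for Lrp5, 91.0 for Sfrp2 and 58.2 for Dkk3. The list's medians were -0.07 at 2 h and -0.16 at 8 h, beside 0.004 and 0.025 over all tested genes. Of all tested genes 9.88% were called higher at 2 h, and 9.54% higher and 7.25% lower at 8 h.

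MEF2C is a transcription factor that drives the distal enhancer of Sost in osteocytes. At 2 h Mef2c stood at 17.1, 20.2 and 16.7 TPM in vehicle, at 22.6, 16.8 and 16.3 in libraries labelled 1,25D, at 16.8, 13.9 and 15.5 in libraries labelled LPA, and at 18.2, 16.4 and 17.1 with both agents. At 8 h it stood at 20.2, 18.3 and 21.4 TPM in vehicle, at 18.3, 16.3 and 17.9 in libraries labelled 1,25D, at 16.1, 19.0 and 16.9 in libraries labelled LPA, and at 13.0, 14.7 and 15.8 with both agents. With both agents at 8 h every library lay under all vehicle libraries of that time, and libraries labelled 1,25D reached just short of vehicle. The 2 h treatments overlapped vehicle.

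With both agents at 8 h Mef2c fell by 0.44 ± 0.09 (adjusted p = 0.00116), to 0.738 of the vehicle level, and this held in all 10 alternative settings and in all 6 fits that left out a library (adjusted p up to 0.0456). The fall by 0.27 ± 0.09 in libraries labelled 1,25D at 8 h was at the threshold (adjusted p = 0.0444). It was called in 1 of 10 alternative settings and lost without vehicle replicate 1 or 2 or without any replicate of that group (adjusted p 0.0166 to 0.347 over all alternatives). Libraries labelled LPA gave -0.23 ± 0.09 at 8 h (adjusted p = 0.0989). Vehicle rose by 0.31 ± 0.09 from 2 h to 8 h (adjusted p = 0.0204), a call lost without vehicle replicate 1 or 3 at 2 h or without replicate 1 or 2 at 8 h (adjusted p up to 0.115 in these fits). It was also lost in 5 of 10 alternative settings, among them the mitochondrial covariate (0.19, adjusted p = 0.218) and log2(TPM + 1) (0.14, adjusted p = 0.452, the highest over all alternatives, the lowest being 0.00829). At 2 h no change against vehicle was called (0.11, -0.16 and -0.05 in the same order, adjusted p 0.444 to 0.788). Libraries labelled LPA were lower than libraries labelled 1,25D (log2 difference -0.26 ± 0.09, adjusted p = 0.0448), which was lost in 5 of 10 alternative settings and without replicate 1 or 2 of either group (adjusted p 0.013 to 0.249 over all alternatives).

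Mef2c was measured over 31 transcripts, led by Mef2c-219 with 37.8% and Mef2c-212 with 32.5% of its TPM. Its most like genes, Dab2, an endocytic adaptor, and Coro2a, an actin-binding coronin, reached r = 0.76 each, lower than for the other markers. Among 9 tested genes of the other MEF2 factors and the class IIa histone deacetylases that bind them, 3 rose and none fell with both agents at 2 h, and 2 rose and 1 fell at 8 h. Mef2a rose by 0.76 ± 0.06 at 2 h (adjusted p = 7.54e-09) and fell by 0.26 ± 0.06 at 8 h (adjusted p = 0.0045). The deacetylase gene Hdac9 rose by 1.59 ± 0.27 at 2 h (adjusted p = 0.000202) and by 0.82 ± 0.26 at 8 h (adjusted p = 0.0342), and Hdac7 by 1.26 ± 0.22 at 8 h (adjusted p = 0.000199). The list's medians were 0.48 at 2 h and 0.12 at 8 h, beside 0.004 and 0.025 over all tested genes. Of all tested genes 9.88% were called higher at 2 h, and 9.54% higher and 7.25% lower at 8 h.

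HYOU1 is a chaperone of the endoplasmic reticulum that aids the folding of secreted proteins. At 2 h Hyou1 stood at 50.1, 46.6 and 49.5 TPM in vehicle, at 45.5, 45.9 and 43.7 in libraries labelled 1,25D, at 44.6, 38.5 and 42.4 in libraries labelled LPA, and at 49.1, 40.9 and 42.8 with both agents. At 8 h it stood at 48.8, 40.3 and 50.1 TPM in vehicle, at 49.5, 51.5 and 52.0 in libraries labelled 1,25D, at 45.6, 47.1 and 45.0 in libraries labelled LPA, and at 47.2, 45.9 and 48.3 with both agents. It was the steadiest of the detected markers, and every pair of neighbouring groups in its order of levels overlapped.

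No change of Hyou1 against vehicle was called, with log2 fold changes from -0.12 to 0.11 over the 6 comparisons (adjusted p 0.195 to 0.71). At 8 h, libraries labelled LPA were lower than libraries labelled 1,25D (log2 difference -0.23 ± 0.06, adjusted p = 0.00986) and lower than those with both agents, which exceeded them by 0.23 ± 0.06 (adjusted p = 0.0097). Both calls depended on the scale: on log2(TPM + 1) the second difference was 0.04, beside a median of -0.115 over all tested genes, and the first -0.15, beside 0.045, and neither was called. Without the filter neither was called, and with only the compared groups the second was not. The first was also lost without replicate 2 of libraries labelled LPA (adjusted p = 0.0537, with a range of 0.00101 to 0.243 over all alternatives), and the second without that library or without replicate 2 of both agents (adjusted p = 0.0621 and 0.0706, with a range of 0.00183 to 0.773).

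The genes most like Hyou1 were Pgam1, of glycolysis, and Qsox1, which forms disulfide bonds in secreted proteins (r = 0.88 and 0.85). Of 19 tested chaperones and regulators of the endoplasmic reticulum, 3 rose and none fell with both agents at 2 h, and 2 rose and 2 fell at 8 h, with medians of 0.079 and 0.006 beside 0.004 and 0.025 over all tested genes. The stress sensor gene Atf6 rose by 0.49 ± 0.07 at 2 h (adjusted p = 1.56e-05), and the transcription factor gene Atf4 by 0.26 ± 0.07 at 2 h (adjusted p = 0.0156) and by 0.38 ± 0.07 at 8 h (adjusted p = 0.000891). At 8 h Sdf2l1 fell by 0.38 ± 0.12 (adjusted p = 0.0273) and Herpud1, a gene of protein degradation at that membrane, by 0.25 ± 0.08 (adjusted p = 0.0474). In libraries labelled LPA none was called by edgeR at 2 h, and none rose and 5 fell at 8 h, where 5.38% of all tested genes were called lower. The list's median there was -0.23, beside 0.003 over all tested genes.

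Whether the agents together gave more or less than the sum of the single effects was tested as an interaction on the log2 scale, which has the same value under either naming of the single treatments. At 2 h edgeR called 0 of 6 markers against 0.0365% of genes, 2 had an unadjusted p under 0.05, and DESeq2 called 0. At 8 h edgeR again called 0, against 7.68% of genes, with 2 at an unadjusted p under 0.05 and 0 by DESeq2. The largest values at 8 h were -0.77 ± 0.34 for Piezo1 (adjusted p = 0.112) and 0.28 ± 0.11 for Pdpn (adjusted p = 0.078). Without vehicle replicate 3 at 8 h both were called, at -1.08 (adjusted p = 0.0251) and 0.34 (adjusted p = 0.0344), in ranges over the alternatives of 1.9e-06 to 0.339 and 0.0332 to 0.728. Without replicate 1 of libraries labelled LPA Pdpn was called at 0.37 (adjusted p = 0.0332), and without replicate 3 of both agents Piezo1 was called at -0.96 (adjusted p = 0.0451). For Cd44 the value at 8 h was 0.19 ± 0.11 (adjusted p = 0.213), so its intermediate level with both agents did not differ detectably from the sum of the single log2 effects.

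Among the other osteocyte genes 5 of 14 rose and 1 fell with both agents at 2 h, and 5 rose and none fell at 8 h. Their medians were 0.22 and 0.21, beside 0.004 and 0.025 over all tested genes. Of all tested genes 19.9% were called at 2 h and 16.8% at 8 h, in either direction. Ackr3, a scavenging chemokine receptor, rose by 1.15 ± 0.10 at 2 h (adjusted p = 4.46e-08) and by 0.97 ± 0.11 at 8 h (adjusted p = 6.46e-07), and Cd109, a membrane protein, rose by 0.42 ± 0.07 at 2 h (adjusted p = 0.000233). Fbln7, a matrix protein gene, fell by 0.24 ± 0.07 at 2 h (adjusted p = 0.0161). Tnfsf11, which encodes the osteoclast differentiation factor RANKL, rose by 2.25 ± 0.31 at 8 h (adjusted p = 1.29e-05). In libraries labelled 1,25D 5 rose and none fell at 2 h, and 5 rose and 1 fell at 8 h, while libraries labelled LPA had 1 riser at 2 h, and 2 risers and 1 faller at 8 h.

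Of the markers of other cell types only Sox9 was called against vehicle at 2 h, the single gene of the 4 in the chondrocyte list that was tested. The summed level of that list was 1.46 to 2.03 TPM in vehicle, 4.83 to 6.97 in libraries labelled 1,25D and 3.53 to 5.32 with both agents at 2 h, with Col2a1, Acan and Col10a1 below 0.1 TPM on average. The part of Sox9 in the changes of Cd44 and Gja1 in the same libraries was not tested. The epithelial list had no gene called at 2 h, but its low sum differed. It was 0.774 to 1.79 TPM in vehicle, 0.394 to 0.617 in libraries labelled 1,25D, 0.445 to 0.569 in libraries labelled LPA and 0.512 to 0.992 with both agents. At 8 h Sox9 was also higher in libraries labelled 1,25D, the muscle gene Des was lower there, and with both agents Runx2, Alpl and the epithelial gene Cdh1 were lower. No gene of the endothelial, blood cell or adipocyte lists was called by edgeR against vehicle at either time.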

How the data were processed

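RNA of Ocy454 cells was extracted with an RNeasy kit and made into DNBSEQ Fast RNA libraries, per the labels' protocols. The authors deposited estimated counts per transcript, not scaled between libraries, and TPM, per the file headers, which scales for depth and effective length. The submitters' processing notes name mm39 as the build, and no source used here names the quantifier. Groups follow the labels.

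Of 139145 transcripts, 135078 matched GENCODE M21 identifiers (99.45 to 99.60% of counts) and were summed to genes, with estimated counts rounded. GENCODE M21 and the RefSeq promoters are on GRCm38, so no coordinate was converted. No replicates agreed within sampling noise (chi-square over its degrees of freedom, 7.09 to 134). R 4.3.3 with edgeR 4.0.16 (TMM, filterByExpr with a minimum count of 10, robust quasi-likelihood F test) fitted all 24 libraries without covariates, with 16 residual degrees of freedom and a common dispersion equal to a biological CV of 0.131. In all, 18 comparisons were tested, each adjusted over 16424 genes. CPM uses TMM-scaled library sizes. SEs are the log2 fold change divided by the root of F. The script was tested on simulated data.

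Alternatives were median-of-ratios scaling, no count filter, DESeq2 1.42.0, the compared groups only, a replicate block, length-scaled TPM counts, limma 3.58.1 on log2(TPM + 1) and log2(TPM + 0.1), and leaving out each library. Protein-coding transcripts only and the mitochondrial share as a covariate were chosen after seeing the data. All 8 markers are named. So are the 2 genes most like each tested marker by Pearson correlation of log2 CPM (mean of at least 1 CPM), up to 2 risers and 2 fallers per companion list with both agents, of which a part is printed, and Cyp24a1 and Vdr. The markers and lists were chosen with earlier results of these data known.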

Additional observations from a re-analysis of the deposited data

Results flagged for a closer look

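A difference of a treatment's effect between 8 h and 2 h, tested as an interaction with edgeR, marked 6 results on 3 genes. Each is the log2 effect at 8 h minus that at 2 h. In libraries labelled 1,25D it was -0.54 for Cd44 (adjusted p = 0.0031) and -0.91 for Gja1 (adjusted p = 8.77e-05). Libraries labelled LPA gave -0.70 for Cd44 (adjusted p = 0.000257). With both agents it was 0.35 for Pdpn (adjusted p = 0.0412), -1.05 for Cd44 (adjusted p = 6.24e-07) and -0.67 for Gja1 (adjusted p = 0.00113).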

How the results depend on the processing

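No marker's called change took the other sign in the alternatives run. Counts of markers called that moved by over 1.5 times are given here, and the cause was not tested. Each, except for the fits that left out a library, is followed by the number of all tested genes called in the same fit, beside that of the fit reported. The marker counts of the fits that left out a library therefore have no share of all genes beside them. With the mitochondrial share as a covariate, 4 markers were called for both agents against vehicle at 2 h (3836 genes beside 3267), 1 for both agents against libraries labelled 1,25D at 2 h (172 beside 126) and 1 in the interaction at 8 h (3641 beside 1262). With only the compared groups in the fit, 4 were called between the single treatments at 2 h (4269 beside 2967), 2 for both agents against libraries labelled LPA at 8 h (1263 beside 3765), and 0 for vehicle at 8 h against 2 h (413 beside 2393). Without a filter, 1 was called in the interaction at 8 h (3094 genes) and 2 in the time difference of libraries labelled LPA (3065 beside 1110), where DESeq2 (2366) and limma on log2(TPM + 1) and log2(TPM + 0.1) (488 and 446) also gave 2. Counts from length-scaled TPM gave 1 between the single treatments at 2 h (2180 genes), 1 for vehicle over time (1671) and 1 in the time difference of libraries labelled 1,25D (376 beside 685), where the same limma fits also gave 1 (427 and 406). Leaving out each library gave 1 to 2 between the single treatments at 2 h, 2 to 4 for libraries labelled LPA against vehicle at 8 h, 0 to 2 in the interaction at 8 h, 1 to 3 for vehicle over time and 1 to 3 in the time difference of libraries labelled LPA. The most was reached without vehicle replicate 3 at 8 h for libraries labelled LPA against vehicle, for the interaction, for vehicle over time and for the time difference of libraries labelled LPA.

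With the replicate number as a block, 1 marker was called between the single treatments at 2 h (2825 genes beside 2967), and Mef2c was lost (adjusted p = 0.062). The calls of Mef2c in libraries labelled 1,25D at 8 h (0.059) and of Pdpn over time with both agents (0.0592) were also lost. Same-numbered libraries were not paired in the data: the correlation of their deviations had a median of -0.00281 over 84 pairs, and 6 of 24 libraries were closest to their own number. On log2(TPM + 0.1) the median of all genes moved by up to 0.208, so changes on that scale are read against it. Over all genes, 49 of 180 counts of called genes moved by over 1.5 times: the interaction at 8 h gave 13 to 3641 over the alternatives. Depth limits Sost and Mepe.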
